A study of Mus musculus with 12 samples.

Results

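The small RNAs of serum extracellular vesicles (blood EVs, bEVs) were examined for mmu-miR-182-5p, mmu-miR-183-5p and mmu-miR-96-5p (below without the species prefix), the 5p arms of 3 miRNA hairpins encoded close together in the genome. These 3 names were taken from the deposited table of 1995 features, which holds 1885 miRNAs and 110 piRNAs. All 3 passed the filter on low counts and are among the 1720 features that were tested. The tested mice were 6 Rag1-/- mice that received a systemic injection of 10000000 T cells each, purified from the spleens of WT mice. They were compared with 6 Rag1-/- mice that received medium (the vehicle). All 12 were males on a C57BL/6 background that cannot make T or B cells of their own, and the study's scheme places the injection at 6 weeks and the collection of sera at 10 weeks of age. Each library comes from 1 mouse, and bEVs were enriched by differential ultracentrifugation.

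miRNAs are short RNAs that guide Argonaute proteins to mRNAs, mainly by pairing through the seed, bases 2 to 8 from the 5′ end, and lower the output of those mRNAs. The cluster of miR-182, miR-183 and miR-96 is known from sensory organs, where it is needed for the maturation of hair cells and photoreceptors, and mutations in the seed of miR-96 cause hearing loss in mice and humans. In mouse helper T cells miR-182 is induced after activation and represses Foxo1, a transcription factor that restrains proliferation, which makes the cluster of interest in the serum of mice that carry transferred T cells.

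The mature sequences (RefSeq, GRCm38.p6) are shown because the 3 miRNAs overlap in the part that selects targets. The seed is in capitals.
miR-182-5p: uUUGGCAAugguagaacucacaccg
miR-96-5p: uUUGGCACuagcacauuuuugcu
miR-183-5p: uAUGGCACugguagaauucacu

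miR-182-5p and miR-96-5p share bases 2 to 7 and differ in the seed by A8C alone, the base of miR-182-5p given first and positions counted from the 5′ end. miR-183-5p differs from miR-96-5p in the seed by A2U (miR-183-5p first) and from miR-182-5p by U2A and A8C (miR-182-5p first). Over the whole length compared, seed included, miR-183-5p has 18 of 22 bases in common with miR-182-5p and 13 of 22 with miR-96-5p when aligned at the 5′ ends. No other of the 1613 measured miRNAs with a matched sequence has the 7-base seed of any of the 3. Bases 3 to 7, UGGCA, are common to all 3 and are found at these positions in 4 of the 1613 (0.248%). The fourth is miR-7022-5p, encoded on chromosome 4 from 148146973 to 148146995, which was at 269 ± 77.2 CPM after T cell transfer, against 248 ± 80.5 CPM after medium (± SD, n = 6 mice per group).

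In GRCm38 the 3 hairpins lie on the minus strand of chromosome 6 within 3820 bases, outside any annotated gene other than their own (GENCODE M21). *Mir183* spans 30169668 to 30169737, *Mir96* spans 30169446 to 30169551 and *Mir182* spans 30165918 to 30165992. *Mir96* and *Mir183* are separated by 116 bases, and *Mir182* lies 3453 bases downstream of *Mir96*. The nearest genes are the lincRNA *Rncr4*, 3156 bases away on the plus strand, and *Nrf1*, 12460 bases away on the plus strand. The hairpins are shown next since both arms were counted, with the 5p arm and then the 3p arm in capitals.
Mir182: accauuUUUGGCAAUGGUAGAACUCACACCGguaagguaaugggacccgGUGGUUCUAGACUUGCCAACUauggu
Mir96: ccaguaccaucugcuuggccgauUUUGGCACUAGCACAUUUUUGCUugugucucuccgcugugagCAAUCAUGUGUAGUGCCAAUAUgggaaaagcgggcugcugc
Mir183: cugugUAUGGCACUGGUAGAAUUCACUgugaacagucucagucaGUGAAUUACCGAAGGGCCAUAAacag

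Total counts ranged from 75475 to 130106 in the libraries of the T cell group and from 48997 to 116048 in those of the medium group. T cell replicate 2 and medium replicate 3 stand apart, since they hold no count from 1 to 9 (their smallest count above 0 is 10), while the other 10 libraries hold 34 to 471 such counts. Counts of miR-183-5p and miR-96-5p are near or in this range, and each member's fold change is also given without these 2 libraries. Levels are given as CPM, counts per 1000000 after scaling by the trimmed mean of M values (TMM). CPM is not scaled by length, as each count stands for a whole miRNA. More vesicles of one source and more miRNA per vesicle cannot be told apart in bulk serum.

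The cluster was counted at low levels in both groups. Of the 1995 features, 0 lacked counts in all 12 libraries, and no background level is known here. Whether counts this low stand for miRNA carried in the bEVs was not tested. miR-182-5p had a mean of 26.5 counts per library, miR-96-5p of 16.4 counts and miR-183-5p of 15.7 counts, where the mean count of a tested feature had a median of 25.2. In mean CPM over the 12 libraries, 925 of the 1720 tested features lay below miR-182-5p (302 CPM), 358 below miR-96-5p (181 CPM) and 291 below miR-183-5p (167 CPM). The median tested feature was at 284 CPM, so miR-182-5p was at 1.06 times, miR-96-5p at 0.637 times and miR-183-5p at 0.588 times that level. The order of miR-96-5p and miR-183-5p is not larger than their spread between mice. Together the 3 made up 0.0301% to 0.101% of the counts of a library after T cell transfer, against 0.0408% to 0.0845% of a library with medium.

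**Figure D1:**
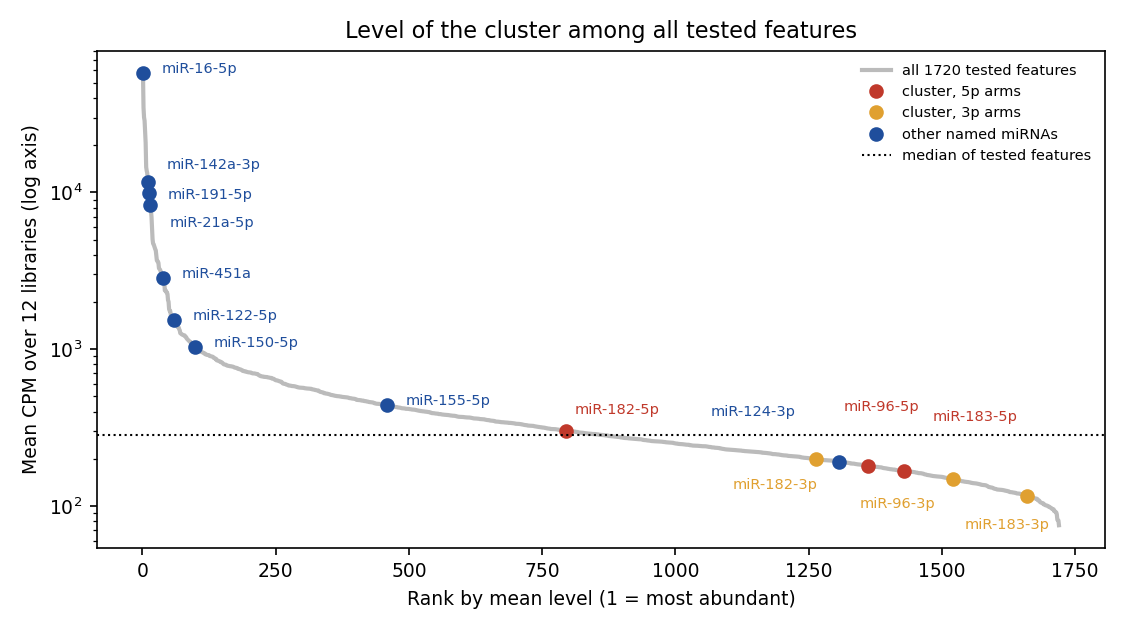
Mean CPM over the 12 libraries (log axis) against rank for the 1720 tested features (gray), with the 5p arms of the cluster in red, their 3p arms in orange, other named miRNAs in blue and the median of 284 CPM dotted. miR-182-5p lies next to the median, and miR-96-5p and miR-183-5p lie among the less abundant features beside miR-124-3p.

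In comparison, miR-16-5p, a miRNA of red blood cells and many other cells, averaged 57532 CPM over the 12 libraries and miR-142a-3p, specific to blood cells, 11668 CPM. miR-155-5p, which is induced in activated lymphocytes and myeloid cells, averaged 437 CPM. miR-124-3p, the main miRNA of neurons, was at 188 ± 104 CPM after T cell transfer, against 195 ± 181 CPM after medium (± SD, n = 6 mice per group), close to the levels of miR-96-5p and miR-183-5p.

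miR-182-5p ranged between 137 and 640 CPM (median 336) in the 6 mice with T cells, against 143 and 396 CPM (median 239) in the 6 mice with medium. The highest and the lowest of the 12 values both belong to the T cell group (replicates 5 and 3), and the other 4 mice with T cells lay within the range of the medium group. The means were 350 ± 164 CPM after T cell transfer, against 255 ± 108 CPM after medium (± SD, n = 6 mice per group). The log2 fold change of T cells over medium was 0.44 (standard error 0.36, 95% interval −0.31 to 1.18), which did not pass edgeR's quasi-likelihood test (adjusted p = 0.990). In linear terms the interval runs from 0.807-fold to 2.27-fold. Scaling to total counts gave 0.12, where the median over all features was −0.38, and scaling to the abundant miRNAs gave −0.026, where that median was −0.55. Without T cell replicate 2 and medium replicate 3 the fold change was 0.30 (95% interval −0.49 to 1.10).

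miR-183-5p ranged between 0 and 354 CPM (median 153) in the 6 mice with T cells, against 0 and 243 CPM (median 189) in the 6 mice with medium. It had no count in T cell replicates 2 and 3 and in medium replicate 6, while T cell replicates 5 and 6 lay above every medium library. A count of 0 allows up to 34.9 CPM in T cell replicate 2, 41.2 CPM in T cell replicate 3 and 47.1 CPM in medium replicate 6 (3 counts of each library, counting error only). In T cell replicate 2 this limit does not hold, as that library lists no count below 10 other than 0. The means were 162 ± 151 CPM after T cell transfer, against 172 ± 90.3 CPM after medium (± SD, n = 6 mice per group). The log2 fold change was −0.10 (standard error 0.85, 95% interval −1.88 to 1.67), with an adjusted p = 0.990 in edgeR. The interval from 0.272-fold to 3.18-fold is the widest of the 3. The fold change was 0.26 (95% interval −1.27 to 1.79) without T cell replicate 2 and medium replicate 3. It was also above 0 without T cell replicate 2 (0.14), T cell replicate 3 (0.15), medium replicate 1 (0.018) or medium replicate 3 (0.021) alone. It was −0.46 without T cell replicate 5, −0.30 after scaling to total counts and −0.44 after scaling to the abundant miRNAs.

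miR-96-5p ranged between 51.6 and 233 CPM (median 181) in the 6 mice with T cells, against 141 and 269 CPM (median 208) in the 6 mice with medium. T cell replicates 1 and 4, with 6 and 5 counts, lay below every medium library, and the other 4 mice with T cells lay within the range of the medium group. The means were 157 ± 78.4 CPM after T cell transfer, against 205 ± 43.6 CPM after medium (± SD, n = 6 mice per group). The log2 fold change was −0.39 (standard error 0.46, 95% interval −1.35 to 0.57), with an adjusted p = 0.990 in edgeR. In linear terms this is an interval from 0.392-fold to 1.48-fold. The fold change was −0.74 (95% interval −1.74 to 0.26) after scaling to total counts and −0.89 (95% interval −1.92 to 0.15) after scaling to the abundant miRNAs. Without T cell replicate 2 and medium replicate 3 it was −0.52 (95% interval −1.53 to 0.49).

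**Figure D2:**
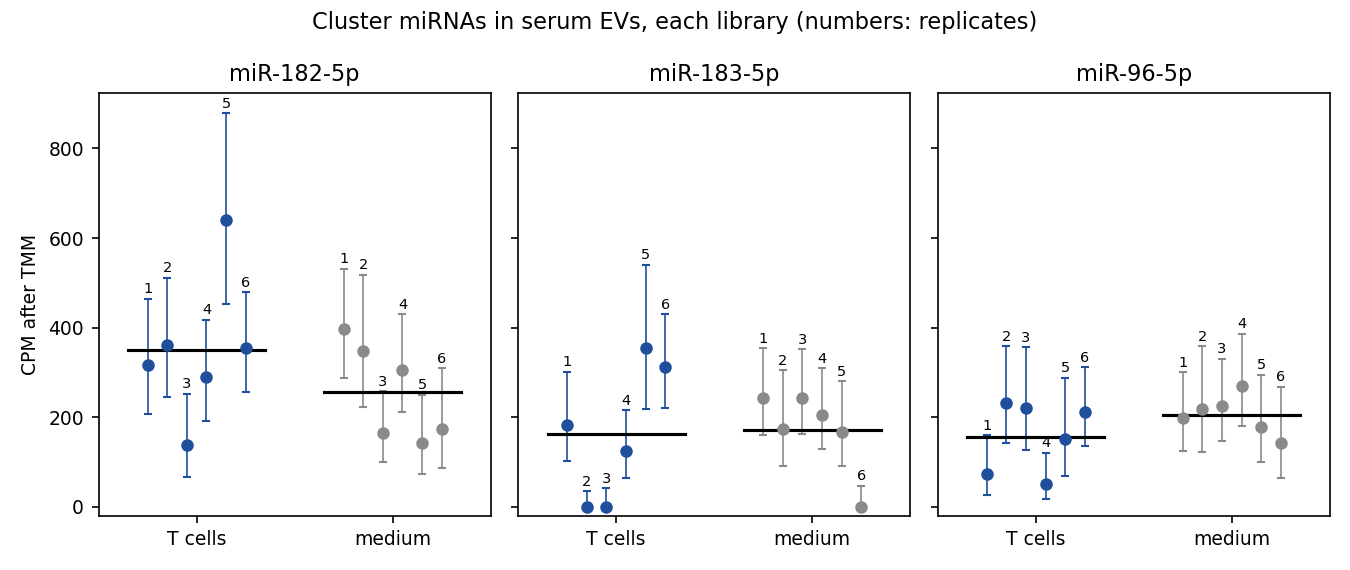
CPM after TMM of miR-182-5p, miR-183-5p and miR-96-5p in each library, T cells in blue and medium in gray. Bars are 95% Poisson intervals of the count (for a count of 0, up to 3 counts), black lines are group means and numbers are replicates. The groups overlap for each of the 3 miRNAs, and miR-183-5p is at 0 in T cell replicates 2 and 3 and medium replicate 6.

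Of the 3 members, 0 passed edgeR's test in either direction and 0 had an unadjusted p under 0.05. Over the 1720 tested features edgeR called 0% higher and 0% lower with T cells (lowest adjusted p = 0.204), with 5.06% higher and 1.92% lower at an unadjusted p under 0.05. limma voom called 0 features. DESeq2, the tool of the study, called 7.13% of 561 features higher and 0.713% lower, and gave the 3 members no adjusted p, since their mean counts lay under its filter. In exact two-sided permutation tests of mean log2 CPM over all arrangements of the mice, run for every tested feature, the members had p = 0.329 (miR-182-5p), p = 0.721 (miR-183-5p) and p = 0.229 (miR-96-5p), or adjusted over all tested features 0.882, 0.969 and 0.826. In 0 of the 3 did the groups separate, which 0.174% (T cells above) and 0.116% (T cells below) of the tested features did. The median log2 fold change of the 3 was −0.10, against −0.05 over all tested features, of which the middle 50% lay between −0.32 and 0.23.

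**Figure D3:**
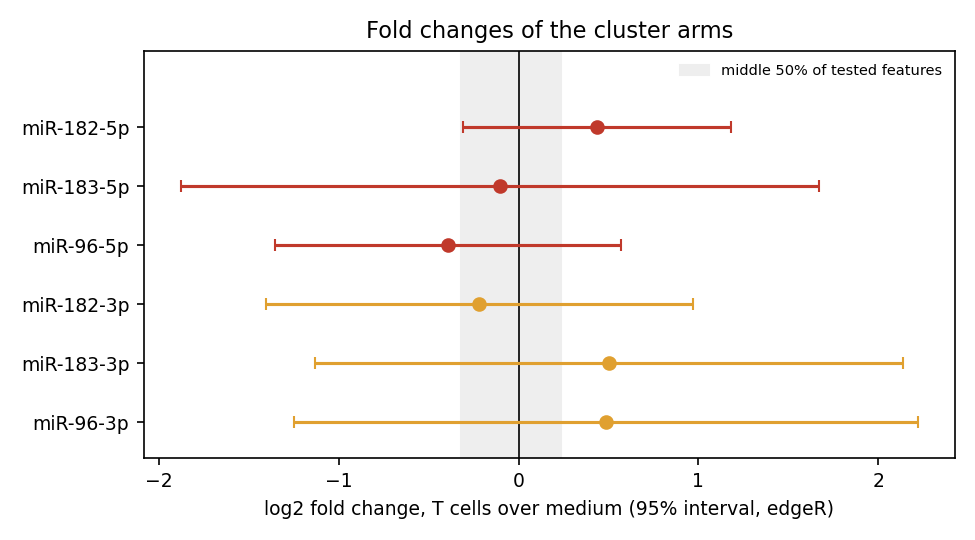
Log2 fold change of T cells over medium with its 95% interval (edgeR) for the 5p arms (red) and the 3p arms (orange) of the cluster. Gray marks the middle 50% of tested features, from −0.32 to 0.23. Every interval contains 0.

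The spread between mice was set beside that of counting alone. With a mean of 26.5 counts, counting alone gives a coefficient of variation of 19.4% for miR-182-5p, and 46.9% was found after T cell transfer, against 42.5% with medium. For miR-96-5p counting alone gives 24.7%, and 50.04% was found after T cell transfer, against 21.3% with medium. For miR-183-5p it gives 25.3%, and 93.0% was found with T cells and 52.5% with medium. A 2-fold change of miR-183-5p in either direction lies inside its 95% interval. The interval of miR-182-5p contains a 2-fold higher level and that of miR-96-5p a 2-fold lower level.

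The 3p arms, usually the less abundant strands of these hairpins, were counted in most libraries too. Over the 12 libraries miR-182 had 318 counts of the 5p arm and 211 of the 3p arm, so that the 5p arm took 60.1% (95% exact binomial interval 55.8% to 64.3%, counting error only). miR-183 had 188 and 124 counts, a 5p share of 60.3% (54.6% to 65.7%), and miR-96 had 197 and 157 counts, a 5p share of 55.6% (50.3% to 60.9%). Over the 720 measured hairpins with counts of both arms listed, the more abundant arm took a median of 66.4%, and 502 hairpins had a higher such share than miR-182, 493 than miR-183 and 596 than miR-96. Hairpins of miRNAs known from blood cells ranged widely, as the major arm took 95.1% for miR-21a, 93.4% for miR-142a, 89.3% for miR-223, 72.0% for miR-486a and 65.5% for miR-144. That of miR-122, the main miRNA of liver, took 97.4%. miR-124 was as even as the cluster, with 55.1%.

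**Figure D4:**
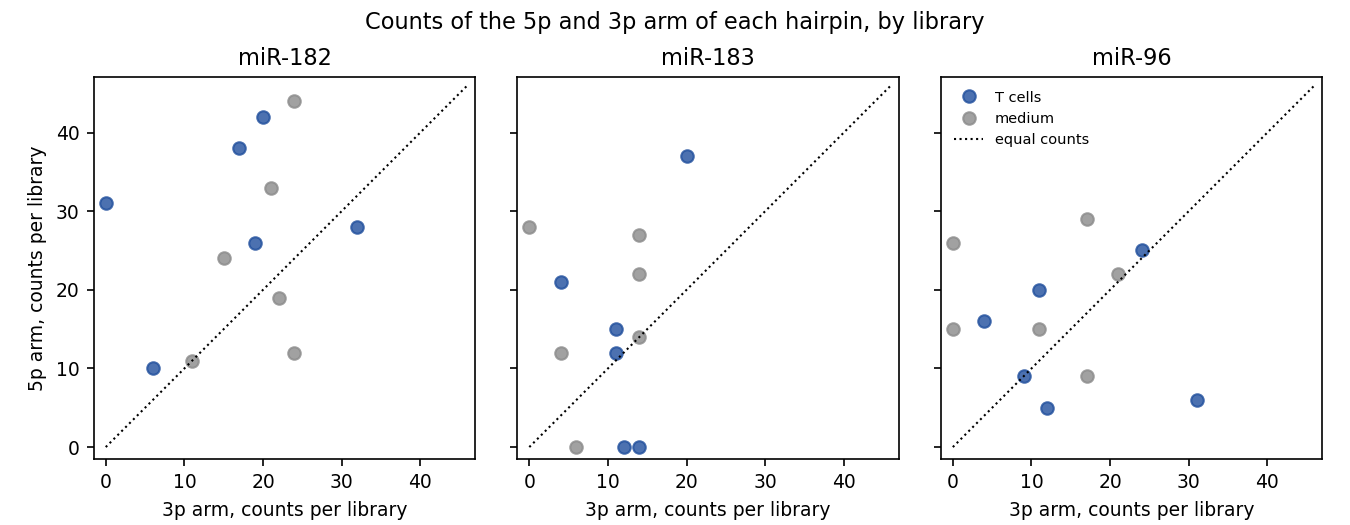
Counts of the 5p arm (y axis) against the 3p arm (x axis) of miR-182, miR-183 and miR-96 in each library, T cells in blue and medium in gray, with equal counts dotted. Points lie on both sides of the dotted line for each hairpin.

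With T cells the 5p share was 65.1% for miR-182, 54.1% for miR-183 and 47.1% for miR-96, and with medium it was 55.0%, 66.5% and 63.7%. T cell replicate 2 had 31 counts of miR-182-5p and 0 of miR-182-3p, and 0 of miR-183-5p and 12 of miR-183-3p. Medium replicate 3 had 28 counts of miR-183-5p, 26 of miR-96-5p and 0 of both 3p arms. The smallest count above 0 in both libraries is 10, so these zeros are uncertain. They raised the 5p share of miR-182 with T cells and of miR-183 and miR-96 with medium, and lowered that of miR-183 with T cells. Shares without these libraries were not computed. The 5p arm of miR-182 outnumbered its 3p arm in 5 of 6 libraries with T cells and in 3 of 6 with medium, that of miR-183 in 4 of 6 and 4 of 6, and that of miR-96 in 3 of 6 and 5 of 6. miR-182-3p was at 183.2 ± 125 CPM after T cell transfer, against 213 ± 39.5 CPM after medium, miR-183-3p at 136 ± 43.5 CPM and 95.8 ± 59.6 CPM, and miR-96-3p at 173 ± 111 CPM and 124 ± 106 CPM (SD, n = 6 mice each). Their log2 fold changes were −0.22 (95% interval −1.41 to 0.97) for miR-182-3p, 0.50 (−1.13 to 2.14) for miR-183-3p and 0.49 (−1.25 to 2.22) for miR-96-3p, and 0 of the 3 passed edgeR's test (adjusted p = 0.990 for each, 0 at an unadjusted p under 0.05). These means and fold changes include the zeros given above, and miR-96-3p was also at 0 in medium replicate 2. Without T cell replicate 2 the fold changes of all 3 were above 0 (median 0.49). Fold changes of the 3p arms without medium replicate 3 were not examined.

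Ratios within a library do not depend on how libraries are scaled, but with 1 count added they depend on depth where a count is low or 0. miR-183-5p had no count in T cell replicates 2 and 3 and medium replicate 6. T cell replicate 2 lists no count from 1 to 9, so its ratios with miR-183-5p are uncertain. The log2 ratio of miR-182-5p to miR-96-5p (1 count added to both) was 1.15 ± 1.11 after T cell transfer, against 0.22 ± 0.54 with medium (SD, n = 6 mice each; two-sided exact permutation test, p = 0.0931). This ratio was above 0 in 5 of 6 mice after T cell transfer, against 4 of 6 with medium. The difference of 0.93 became 1.28 without T cell replicate 3 (exact permutation test, p = 0.0173), and with any other single library left out it did not pass (exact permutation test, p = 0.0758 to 0.193). The ratio of miR-182-5p to miR-183-5p was 1.90 ± 1.90 after T cell transfer, against 0.84 ± 1.46 with medium (n = 6 each; exact permutation test, p = 0.266), and that of miR-183-5p to miR-96-5p was −0.75 ± 2.72 and −0.62 ± 1.35 (n = 6 each; exact permutation test, p = 0.972). These 3 p values are unadjusted, and the fold changes of the members were thus not shown to differ from each other.

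The hairpins are neighbors, and the levels of the 3 miRNAs were set against each other across the 12 libraries. As a description, Pearson's r of log2 CPM was 0.45 for miR-182-5p and miR-183-5p (Spearman's rho 0.54). It was −0.090 for miR-182-5p and miR-96-5p (rho −0.028) and −0.070 for miR-183-5p and miR-96-5p (rho −0.042). Without the 2 libraries farthest from the median of the first miRNA of each pair, r was 0.39, 0.027 and 0.25. As miR-183-5p was at 0 in 3 libraries, the first and the last of these still include libraries with no count of it. For miR-182-5p and miR-183-5p r was 0.65 within the T cell group and 0.38 within the medium group (6 libraries each). For miR-182-5p and miR-96-5p these values were −0.078 and 0.47, and for miR-183-5p and miR-96-5p they were −0.42 and 0.79. The 3 pairs were thus positive within the medium group and 1 was within the T cell group. The r values of miR-183-5p include its libraries at 0, T cell replicates 2 and 3 and medium replicate 6. In medium replicate 6 miR-96-5p was also the lowest of its group (141 CPM), and T cell replicate 2 lists no count from 1 to 9. The within-group r without these libraries was not computed, so a difference between the groups was not shown. The values of a library share its depth and scaling factor.

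Of 290 tested features with a median count of at least 50, those with log2 CPM most like miR-182-5p over the 12 libraries were miR-3098-5p (r = 0.84), miR-29b-3p (0.82) and miR-3074-5p (0.81). For miR-183-5p they were miR-7680-5p (0.86), miR-488-5p (0.82) and miR-137-3p (0.73), and for miR-96-5p miR-8120 (0.83), miR-1941-5p (0.69) and miR-1964-3p (0.64). No feature is among the first 3 for more than 1 member. Each is among the highest of 290 values and is given as a description.

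The miRNAs of cells in which the cluster is known were set beside it. Over all tested features, edgeR had 5.06% higher and 1.92% lower at an unadjusted p under 0.05. DESeq2 called 7.13% of 561 features higher and 0.713% lower. The counts of each list below are to be read against these shares. Of 13 miRNAs that change with the activation of T cells, edgeR called 0 (3 higher at an unadjusted p under 0.05) and DESeq2 called 3 higher and 0 lower of the 9 to which it gave an adjusted p, miR-21a-5p, miR-146a-5p, which dampens NF-κB signaling, and miR-20a-5p of the miR-17 clusters. miR-21a-5p, the most abundant of them, was at 11051 ± 3709 CPM after T cell transfer, against 5689 ± 2389 CPM after medium, and miR-221-3p at 1126 ± 441 CPM and 849 ± 250 CPM (SD, n = 6 mice each). miR-155-5p was at 484 ± 147 CPM and 391 ± 105 CPM. The log2 fold changes of the 13 had a median of 0.30, where all tested features had −0.05. Of the 13, 9 were above 0 and 4 below (miR-212-3p, miR-19b-3p, miR-210-3p and miR-132-3p). Scaling to total counts gave −0.018 for the 13 where all features had −0.38, and scaling to the abundant miRNAs gave −0.20 where all features had −0.55, and the medians of the lists below shift with the same settings. Their summed level was 12017 to 24450 CPM after T cell transfer, against 6683 to 14618 CPM after medium.

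Of 7 lymphocyte miRNAs edgeR called 0 (1 higher at an unadjusted p under 0.05) and DESeq2 0 of 6, with a median log2 fold change of 0.49 (0.086 with total counts and −0.072 with the abundant miRNAs). Of the 7, 5 had a log2 fold change above 0 and 2 below, miR-181b-5p (−0.13) and miR-31-5p (−0.21). miR-142a-3p was at 14880 ± 4699 CPM after T cell transfer, against 8456 ± 5229 CPM after medium, and miR-150-5p, of mature lymphocytes, at 1182 ± 594 CPM and 893 ± 449 CPM (SD, n = 6 each). The summed level of the 7 was 12069 to 28589 CPM after T cell transfer, against 6541 to 21687 CPM after medium.

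Of 10 miRNAs of red blood cells edgeR called 0 (3 higher at an unadjusted p under 0.05) and DESeq2 0. Their summed level ranged from 45020 to 396728 CPM (median 162501) after T cell transfer, and from 33021 to 159592 CPM (median 63188) with medium. miR-16-5p, at 79390 ± 49296 CPM and 35673 ± 23864 CPM, and miR-486b-5p, at 46562 ± 41876 CPM and 22985 ± 14447 CPM (SD, n = 6 each), were the most abundant, and none of the 10 was at 0 in any library. Of the 10, 9 had a log2 fold change above 0 and 1 below, miR-144-3p (−0.22). That of miR-451a was 0.40, at 3246 ± 2987 CPM after T cell transfer, against 2455 ± 2549 CPM after medium. The log2 fold changes of the 10 had a median of 0.92 (0.50 under total counts, 0.37 under the abundant miRNAs). This median was 0.44 without T cell replicate 2, which holds the highest sum and in which miR-183-5p was at 0. The smallest count above 0 in that library is 10, so this 0 is uncertain. T cell replicates 5 and 6, with the highest summed levels of the cluster (1146 and 877 CPM), had erythroid sums of 172361 and 45020 CPM. T cell replicates 1 to 4 had cluster sums of 573, 593, 357 and 464 CPM. Their erythroid sums were 154295, 396728, 170707 and 81532 CPM. Medium replicates 1, 2 and 4 had the highest erythroid sums (159592, 127263 and 66418 CPM) and cluster sums (838, 740 and 780 CPM) of their group. Medium replicates 3, 5 and 6 had lower erythroid sums (59958, 47726 and 33021 CPM) and cluster sums (634, 489 and 314 CPM). The part of red blood cell miRNAs in the values of the cluster was not tested.

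Of 8 tested sensory and neuronal miRNAs (9 listed) edgeR called 0 (1 higher at an unadjusted p under 0.05) and DESeq2 called 1 higher of the 3 to which it gave an adjusted p, miR-128-3p, a miRNA of neurons that was the most abundant of the list at 4806 ± 1673 CPM after T cell transfer, against 2296 ± 1046 CPM after medium (± SD, n = 6 per group). miR-138-5p was at 1833 ± 2679 CPM and 1079 ± 359 CPM. miR-204-5p, of the retinal pigment epithelium, was at 122 ± 73.3 CPM and 179 ± 83.6 CPM, and miR-211-5p at 199 ± 40.1 CPM and 174 ± 89.99 CPM, the range of miR-96-5p and miR-183-5p. The log2 fold changes of the list had a median of 0.11 (−0.22 with total counts and −0.40 with the abundant miRNAs).

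The other lists are named after cells in which their miRNAs are known, and the source of each miRNA in these sera was not tested. The 5 platelet and myeloid miRNAs that DESeq2 called were miR-191-5p, miR-223-3p, miR-24-3p, miR-23a-3p and miR-27a-3p. The study detected miR-23a-3p in EVs of cultured T cells. It also found less of it in bEVs after transfer of Mir23a-/- T cells than of WT T cells. Of 6 platelet and myeloid miRNAs DESeq2 called 5 higher and edgeR 0 (6 higher at an unadjusted p under 0.05), with a median log2 fold change of 1.18 (0.75 with total counts and 0.61 with the abundant miRNAs), the most abundant being miR-126a-3p, at 19141 ± 7839 CPM after T cell transfer, against 7454 ± 7692 CPM after medium, and miR-191-5p, at 14995 ± 6783 CPM and 4870 ± 1565 CPM (SD, n = 6 each). Of 9 epithelial and neuroendocrine miRNAs edgeR called 0 (0 at an unadjusted p under 0.05) and DESeq2 0 of the 5 to which it gave an adjusted p. Their log2 fold changes had a median of 0.15 (−0.24 under total counts, −0.39 under the abundant miRNAs), with miR-203-3p at 946 ± 348 CPM and 1265 ± 603 CPM and miR-7a-5p at 716 ± 270 CPM and 562 ± 275 CPM. Of 3 liver miRNAs both called 0 (2 higher at an unadjusted p under 0.05 in edgeR), and their log2 fold changes had a median of 0.77 (0.36 under total counts, 0.19 under the abundant miRNAs), with miR-122-5p at 1944 ± 447 CPM and 1142 ± 477 CPM and miR-192-5p at 779 ± 484 CPM and 734 ± 145 CPM. The named miRNAs of the platelet and myeloid list and of the liver list lay above the cluster in mean level in both groups.

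**Figure D5:**
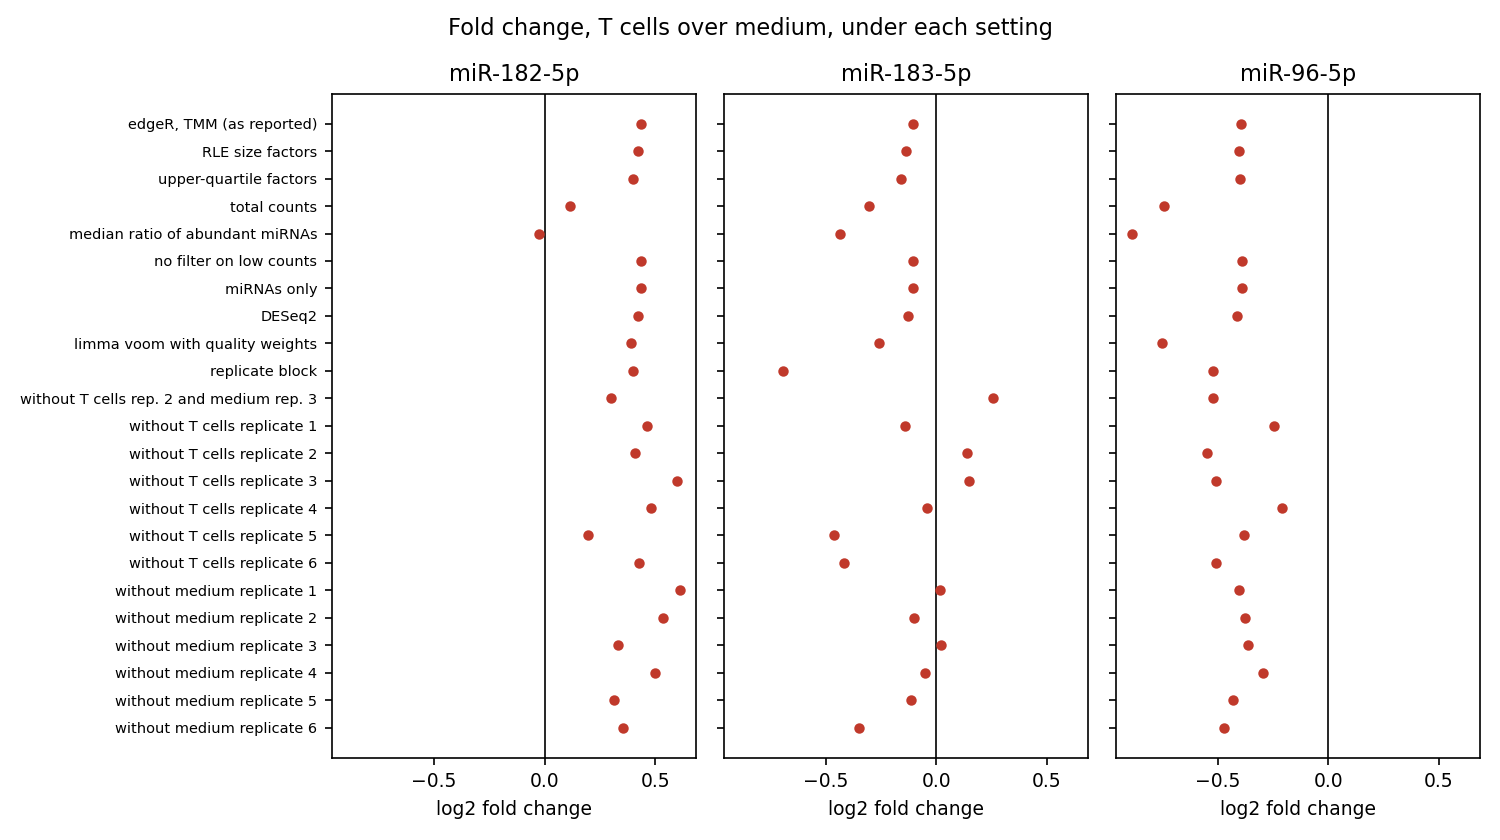
Log2 fold change of T cells over medium (x axis) of miR-182-5p, miR-183-5p and miR-96-5p under each scaling, filter, tool and left-out library (y axis). miR-96-5p stays below 0 from −0.89 to −0.21, miR-182-5p lies above 0 except for −0.026 with libraries scaled to the abundant miRNAs, and miR-183-5p lies on both sides of 0.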

How the data were processed

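Small RNA libraries of serum bEVs from 12 mice were analyzed. The authors prepared them with the Qiagen miRNA library kit, used bcl2fastq 2.18.0.12 (per the submitters' notes on processing), and trimmed, UMI-tagged and aligned the reads against miRBase and mm10 with GeneGlobe. The deposited table holds whole-number counts, not normalized; it does not say whether these are reads or UMIs.

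Features were kept by filterByExpr by group, scaled by TMM and compared in edgeR 4.0.16 (R 4.3.3, quasi-likelihood test). p values were adjusted by Benjamini-Hochberg over the whole tested table, with 0.05 as the threshold. Standard errors and 95% intervals come from the same fit. The study names DESeq2, which was run on all features as an alternative (1.42.0), as was limma voom (3.58.1). log2 CPM used a prior count of 2. Fits and permutation tests were tested on simulated data. Figures were drawn with Python 3.11.15.

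The members and lists were chosen with earlier results of these data known. Named miRNAs are the members, their 3p arms, miRNAs sharing their seed, the 3 most correlated features and the 2 most abundant members of each list; any others were picked after their values were seen. Alternatives covered scaling (RLE, upper quartile, total counts, median ratio of miRNAs with a mean of 100 or more counts), filters, tools, features, the replicate number and each library left out. Sequences were matched by name in RefSeq.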

Additional observations from a re-analysis of the deposited data

Results flagged for a closer look

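In the medium group, miR-183-5p was at 0 CPM in replicate 6, while the nearest of the other 5 medium libraries was at 167 CPM, a gap that is large for the range of that group by Dixon's criterion. This is the smallest library, with 48997 counts in all, in which 3 counts correspond to 47.1 CPM. It is 1 of 12 groups of 6 values examined (3 members and their 3p arms in both treatments), and chance gives about 1 such group in 20.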

How the results depend on the processing

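None of the 3 members passed the threshold under any alternative that gave an adjusted p (lowest adjusted p 0.315, for miR-96-5p with libraries scaled to the abundant miRNAs). Leaving out 1 library at a time gave log2 fold changes from 0.19 to 0.61 for miR-182-5p, from −0.46 to 0.15 for miR-183-5p and from −0.55 to −0.21 for miR-96-5p. The direction of miR-183-5p turned without T cell replicate 2 (0.14) or 3 (0.15), medium replicate 1 (0.018) or 3 (0.021), and without both T cell replicate 2 and medium replicate 3 (0.26). That of miR-182-5p turned to −0.026 with libraries scaled to the abundant miRNAs. With 1 library left out, the difference in log2 ratio ran from −0.67 to 0.60 for miR-183-5p over miR-96-5p, from 0.44 to 1.61 for miR-182-5p over miR-183-5p and from 0.70 to 1.28 for miR-182-5p over miR-96-5p. The number of features called, 0 in edgeR (120 at an unadjusted p under 0.05), was 44 in DESeq2 and 0 in each other setting, with 95 to 313 at an unadjusted p under 0.05 except for the filter of at least 50 counts in 6 libraries (68), in which no member is left. The replicate number does not pair the mice (correlations of same-numbered libraries from −0.14 to 0.090), and with it as a block the fold changes were 0.40, −0.69 and −0.52 for miR-182-5p, miR-183-5p and miR-96-5p, with 0 features called. The members had 0 to 44 counts per library, and the parts of counting error and of the spread between mice in the width of the intervals were not tested.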
